A study of Mus musculus with 16 samples.

Results

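A set of 9 genes of blood vessel signalling was followed through injured and intact intervertebral discs of the mouse tail: the vascular endothelial growth factor (VEGF) ligands Vegfa, Vegfb, Vegfc and Pgf, the VEGF receptor Flt1, the co-receptors Nrp1 and Nrp2, and the angiopoietins Angpt1 and Angpt2. They were taken by gene name and are 9 of the 49315 genes in the deposited expression table. All 9 are described, and 8 passed the filter for testing (1 TPM or more in 3 or more libraries, where TPM is the level of transcripts scaled to length and library size). Pgf reached 1 TPM in only 2 libraries and was not tested.

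The study compared mice carrying Adam8EQ, an allele of the membrane metalloproteinase gene Adam8, with wild-type mice, named DBA in the study title. Each library came from 1 mouse, with 4 tail discs pooled after the cartilage endplate had been shaved off. Wild-type mice gave 3 intact and 4 injured libraries, and Adam8EQ mice (called mutants below) gave 4 intact and 5 injured libraries. What the EQ allele alters is not spelled out in the labels, and age, sex, the way of injury and the time after it are not given in the sources used here. Because TPM is scaled to length, genes can be set side by side within a library. This is less sure for Pgf and Angpt1, whose values did not match their exon lengths in the GENCODE M21 annotation.

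VEGF ligands bind receptor tyrosine kinases on endothelial cells. VEGF-A acts through Kdr (VEGFR2) as the main signalling receptor, and Flt1 (VEGFR1) binds VEGF-A, VEGF-B and placental growth factor tightly and can act as a trap. Neuropilins bind both VEGFs and class 3 semaphorins, which signal through plexins. Angiopoietin 1 activates the receptor Tek (Tie2) and steadies vessels, and angiopoietin 2 often opposes it. The healthy disc is a largely avascular, low-oxygen tissue, and Vegfa is a classical target of hypoxia-inducible factors.

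Depth approximated from the step size of low TPM values was 10193578 to 24816282 reads per library, with a median of 13293505. Adam8 was listed at 1.24 to 1.69 TPM in intact wild-type discs, 3.52 to 66.3 in injured wild-type discs, 0.956 to 2.97 in intact mutant discs and 16.2 to 264.1 in injured mutant discs. Adam8 transcript was thus present in mutants, and its level does not check the genotype labels. Some disc markers were abundant in intact discs: Acan, the main disc proteoglycan, was at 5926 to 6913 TPM and the notochordal factor gene T at 1789 to 3370 TPM. Others were low there. The notochordal markers Noto and Shh were at no more than 0.785 and 0.109 TPM. The chondrocyte markers Matn3 and Col9a1 were at no more than 2.94 and 7.13 TPM. The injured groups were uneven. The summed TPM of 8 macrophage markers ran from 272 to 3991 in injured wild-type mice and from 883 to 8225 in injured mutants. In intact discs it was 160.4 to 260.03, so injured wild-type mouse 1 lay close to the intact range. Injured wild-type mouse 2 was also low, at 427 against 3991 and 2601 in mice 3 and 4. The summed neutrophil markers were 3.52 and 3.53 TPM in injured wild-type mice 1 and 2, against 195 and 144 in mice 3 and 4. Library names begin with A8 in mutants 1 and 2 of both groups, with M in the other mutants, and with D throughout the wild type, so naming and genotype cannot be told apart in the wild type.

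The sequences just before the RefSeq start of 4 genes are shown because these genes passed the test for injury in mutants, Vegfc and Nrp1 higher and Vegfb and Flt1 lower, and because each window is free of annotated exon. They are the 250 bases 5′ of the RefSeq start on build GRCm38.p6, written 5′ to 3′ on the gene's strand. Capitals mark every match on either strand to ACGTG or GCGTG (cores of the hypoxia response element), TGACGTCA (the cyclic AMP response element) or TGANTCA (the AP-1 site). The windows lie at chr8:54077282-54077531 (plus strand, Vegfc), chr8:128358823-128359072 (plus, Nrp1), chr19:6987652-6987901 (minus, Vegfb) and chr5:147726012-147726261 (minus, Flt1). The Nrp1 window begins 219 bases past the GENCODE M21 start of that gene, in an intron of a longer transcript model, and the other 3 windows lie before the GENCODE start of their gene.
Vegfc: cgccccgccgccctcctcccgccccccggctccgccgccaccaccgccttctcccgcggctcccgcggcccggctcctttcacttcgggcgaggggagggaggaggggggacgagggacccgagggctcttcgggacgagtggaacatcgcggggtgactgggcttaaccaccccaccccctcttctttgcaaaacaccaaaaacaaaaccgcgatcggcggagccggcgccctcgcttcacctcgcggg
Nrp1: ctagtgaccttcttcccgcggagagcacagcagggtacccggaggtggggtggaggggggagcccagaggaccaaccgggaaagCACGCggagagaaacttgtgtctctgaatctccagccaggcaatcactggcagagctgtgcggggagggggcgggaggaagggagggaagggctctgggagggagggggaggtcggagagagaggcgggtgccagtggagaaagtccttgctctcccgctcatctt
Vegfb: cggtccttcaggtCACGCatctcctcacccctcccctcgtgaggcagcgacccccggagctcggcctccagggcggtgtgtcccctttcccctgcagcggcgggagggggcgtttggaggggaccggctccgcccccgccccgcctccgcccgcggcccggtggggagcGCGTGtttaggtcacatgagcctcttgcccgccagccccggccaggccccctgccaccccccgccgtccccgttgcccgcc
Flt1: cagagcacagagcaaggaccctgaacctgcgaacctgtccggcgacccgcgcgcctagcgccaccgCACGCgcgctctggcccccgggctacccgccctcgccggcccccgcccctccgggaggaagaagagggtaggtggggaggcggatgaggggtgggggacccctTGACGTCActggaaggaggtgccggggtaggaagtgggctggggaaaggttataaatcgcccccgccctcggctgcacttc

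The Vegfc window held no match to any of these motifs. The Nrp1 window held 1 GCGTG, 166 bases before the start, and the Vegfb window held 2. The Flt1 window held 1 GCGTG at 184 bases and 1 TGACGTCA at 81 bases before the start. Over 32851 windows of the same length, 28.2% held GCGTG, 16.6% held ACGTG, 38.6% held either core, 6.7% held TGANTCA and 1.5% held TGACGTCA. The letters are a description of these windows, and binding was not measured.

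In intact discs the ligand Vegfa was the highest of the 9 genes. Vegfa, annotated as protein coding at chr17:46016993-46032369 on the minus strand (GRCm38), was listed at 306, 305 and 267 TPM in the 3 intact wild-type mice and at 226, 239, 215 and 265 TPM in the 4 intact mutants. All intact mutants lay below all intact wild-type mice. Vegfb, at chr19:6982473-6987651 on the minus strand, followed with 71.1 to 82.9 TPM in wild type and 51.4 to 74.4 TPM in mutants. Nrp2 was close behind at 52.2 to 68.2 TPM in wild type, below every Vegfb level there, and at 46.8 to 66.6 TPM in mutants, where the ranges of both genes overlap. Flt1 came next, at 13.9 to 17.6 TPM in wild type and 10.8 to 15.3 TPM in mutants. Angpt1, Angpt2 and Nrp1 ranged together from 0.3535 to 5.80 TPM, and Vegfc and Pgf stayed below 1 TPM in every intact disc. In all 16 libraries Vegfa was the highest of the 9 and Nrp2 exceeded Nrp1. Nrp2 exceeded Vegfb in 1 of 7 intact discs and in 9 of 9 injured discs.

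**Figure D1:**
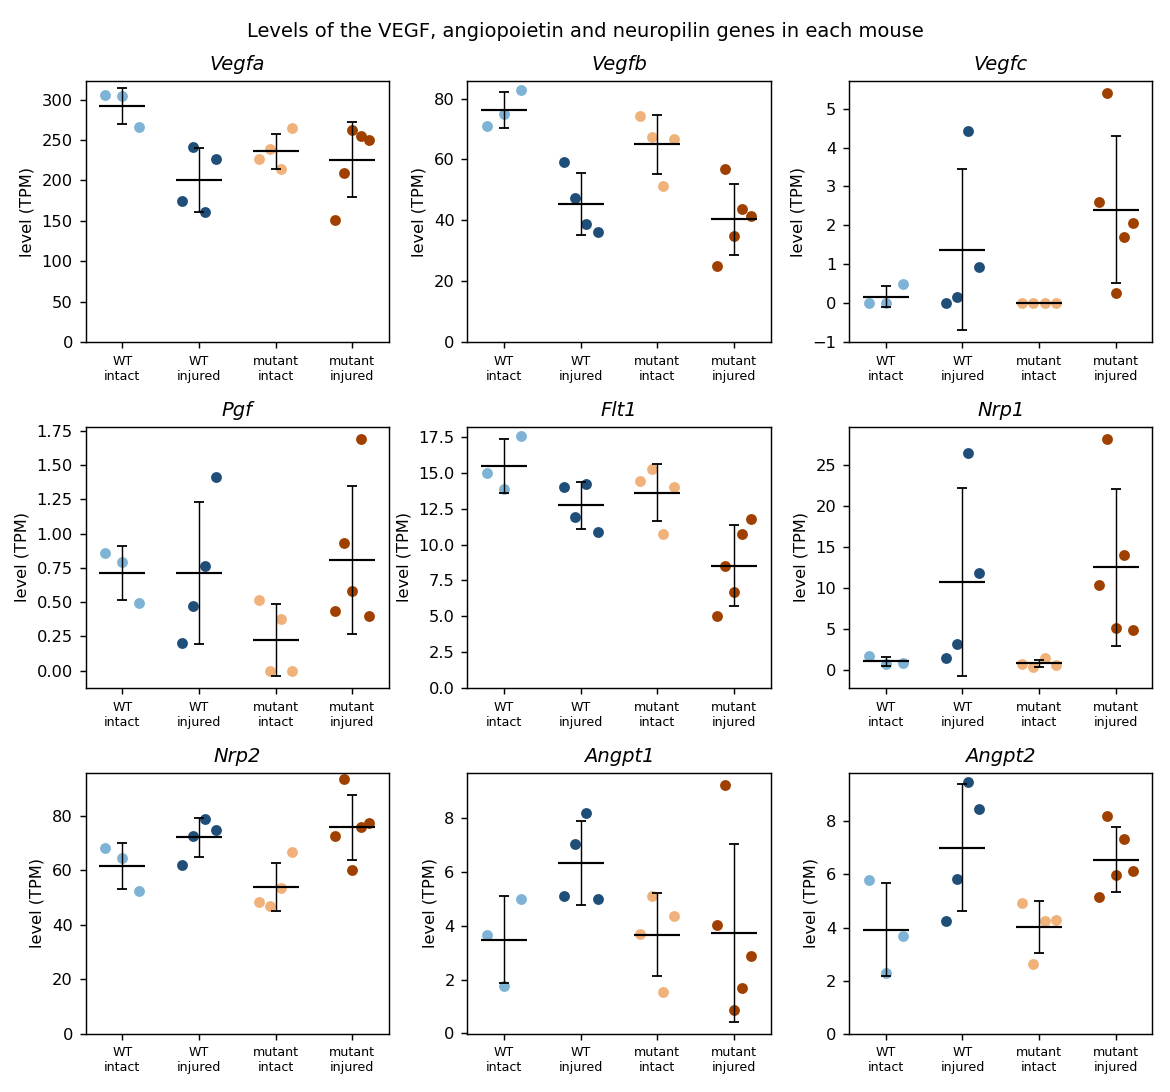
Level of each of the 9 genes in TPM (vertical axis, linear, a separate scale per gene) in each mouse, by genotype and injury. Points are mice, long bars are group means and error bars are SD (n = 3, 4, 4 and 5 from left to right); Nrp1 reaches 26.5 and 28.3 TPM in the highest injured mice, while Vegfa is at 151 TPM or more in all 16.

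Injury changed 5 of the 8 tested genes in mutants and none in wild type at an adjusted p under 0.05 (limma with Benjamini-Hochberg adjustment over all 24188 tested genes). In mutants Nrp1, Nrp2 and Vegfc rose and Vegfb and Flt1 fell. Vegfc was admitted to the test only by injured libraries and Nrp1 mostly so (9 injured and 2 intact libraries at 1 TPM or more), so the count leans on genes admitted by the group where they are high. Across all tested genes 30.8% were called in mutants, 13.1% higher and 17.7% lower, so a call there is common. In wild type 0.116% of all tested genes were called. There limma gave 4 of the 8 genes an unadjusted p under 0.05, beside 17.2% of all tested genes, and voom on approximated reads called 0. The median change of the 8 genes was 0.20 log2 units in mutants and 0.47 in wild type, beside -0.08 and 0.01 for all tested genes. No gene of the 8 passed the interaction test, which asks whether injury acted differently in mutants, so a difference in response between the genotypes was not shown.

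**Figure D2:**
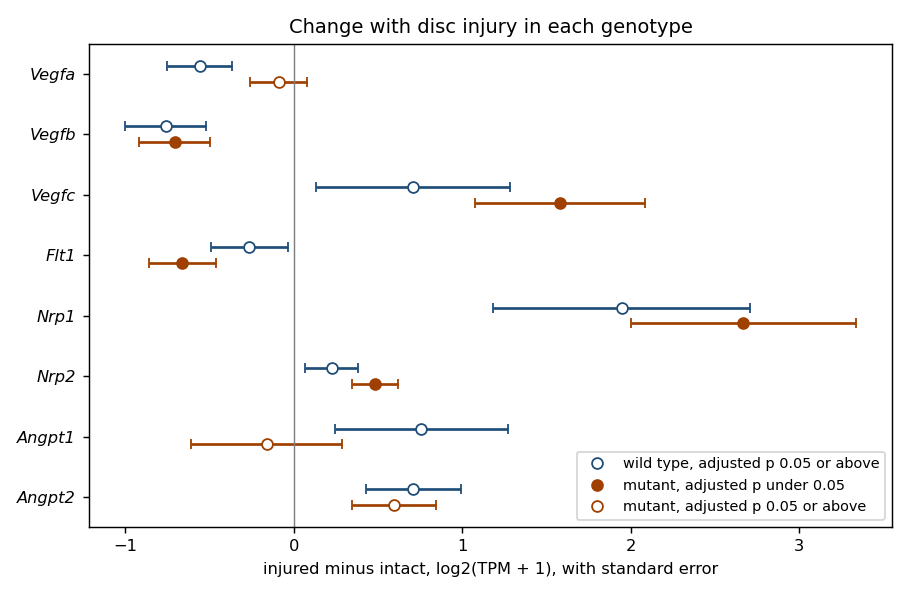
Change with injury (injured minus intact) on the log2(TPM + 1) scale for the 8 tested genes, wild type in blue and mutant in brown, with the standard error of the fit. Filled points passed the adjusted threshold of 0.05: Nrp1, Vegfc, Nrp2, Vegfb and Flt1 in mutants, from 2.67 for Nrp1 to -0.71 for Vegfb.

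Among the ligands, Vegfa, the main angiogenic factor, was listed at 175, 241, 160.4 and 227 TPM in the 4 injured wild-type mice. All lay below the 3 intact wild-type mice, and the group means were 201 ± 39.2 (SD, n = 4) against 292 ± 22.3 (SD, n = 3). The difference was -0.56 ± 0.19 log2 units (SE), with an adjusted p of 0.177. The injured mutants had 151, 209.6, 263, 255 and 250.2 TPM, a range that overlaps the intact mutant range. Their mean of 226 ± 46.5 (SD, n = 5) stood beside 236 ± 21.8 (SD, n = 4), a difference of -0.09 ± 0.17 (adjusted p = 0.711). The injury effects differed by 0.47 ± 0.26 between the genotypes, with an adjusted p of 0.636. The sign in mutants turned to 0.05 without injured mutant 1, the lowest, and to 0.10 among libraries named M.

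Vegfb, a ligand of Flt1 tied mostly to lipid handling and cell survival, fell with injury in mutants and had a like difference in wild type that did not pass. It was listed at 59.0, 47.3, 38.8 and 36.2 TPM in injured wild-type mice and at 25.2, 56.8, 34.7, 43.7 and 41.6 TPM in injured mutants. No injured wild-type mouse reached the intact wild-type range, while injured mutant 2 reached into the intact mutant range. In mutants the mean was 40.4 ± 11.7 (SD, n = 5) against 64.9 ± 9.69 (SD, n = 4), 0.622 times the intact level, and the change of -0.71 ± 0.21 log2 units passed (adjusted p = 0.0149). In wild type the difference of -0.76 ± 0.24 had an adjusted p of 0.1505, and that between the injury effects was 0.05 ± 0.32 (adjusted p = 0.973). Within mutants named A8 the change was -0.88 (adjusted p = 0.0953) and within those named M -0.54 (adjusted p = 0.140). Over 22 settings Vegfb passed in 20, with adjusted p from 0.00313 to 0.140.

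Vegfc, the lymphatic growth factor that signals through Flt4 (VEGFR3), was near the detection limit. It lies at chr8:54077606-54187096 on the plus strand and was listed at 0, 0 and 0.475 TPM in intact wild-type mice and at 0 in all 4 intact mutants. Injured wild-type mice had 0, 0.151, 4.43 and 0.913 TPM, and injured mutants had 2.61, 5.41, 0.25, 1.70 and 2.05 TPM. In approximated reads these are 0, 1, 36 and 8 in injured wild-type mice and 37, 45, 2, 14 and 16 in injured mutants. Every injured mutant was above every intact mutant, although injured mutant 3 was so by 2 reads. The fitted rise in mutants was 1.58 ± 0.50 (adjusted p = 0.0216). It is no fold change, since the intact group is listed at 0 and the value depends on the pseudocount (4.71 with 0.1 TPM in place of 1). The 5 libraries that carried Vegfc past the filter were all injured ones. Without injured mutant 2 the rise was 1.30 and its adjusted p 0.0501. Within mutants named A8 it was 2.27 (adjusted p = 0.0575), and within those named M it was 1.12 (adjusted p = 0.313). Over 21 settings it passed in 17, with adjusted p from 0.00826 to 0.313. In wild type the change was 0.71 ± 0.57 (adjusted p = 0.508).

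Pgf, placental growth factor, the other ligand specific to Flt1, lies at chr12:85166635-85177790 on the minus strand. Its level was 0.490 to 0.858 TPM in intact wild-type mice and 0.202 to 1.41 TPM in injured ones. Intact mutants had 0.511, 0, 0.374 and 0 TPM and injured mutants had 0.436, 0.930, 0.581, 1.69 and 0.396 TPM. The groups overlapped in both genotypes. The levels correspond to no more than 9 approximated reads in any library, taken from the TPM step of Pgf itself, since its values did not fall on the step given by its GENCODE M21 exon length. Fitted without a filter, the injury difference of Pgf was 0.54 ± 0.24 in mutants (adjusted p = 0.123) and -0.04 ± 0.27 in wild type (adjusted p = 1).

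As a share of the summed TPM of the 5 VEGF family ligands (Vegfd added), Vegfa made up 74.7% to 79.4% in intact wild-type discs and 73.7% to 79.4% in intact mutant discs. In injured discs its share was 70.5% to 83.0% in wild type and 72.5% to 86.7% in mutants. Vegfd, another lymphatic ligand, made up at most 1.94% in intact discs, and up to 9.72% in injured wild-type mice and 10.8% in injured mutants. Its level rose in mutants by 1.01 ± 0.36 log2 units (adjusted p = 0.0361), a call that voom did not make. The ranges of the Vegfd level overlapped, at 3.80 to 5.71 TPM in intact and 4.83 to 21.7 TPM in injured mutants.

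Flt1, the decoy-like VEGF receptor, spans chr5:147561604-147726011 on the minus strand. It was listed at 15.0, 13.9 and 17.6 TPM in intact wild-type mice and at 14.0, 11.9, 14.2 and 10.8 TPM in injured ones. Intact mutants had 14.4, 15.3, 10.8 and 14.0 TPM and injured mutants had 5.00, 8.50, 6.66, 10.8 and 11.8 TPM. Injured mutants 1 to 4 were below every other mouse, but mouse 4 (10.752 TPM) only just under intact mutant 3 (10.767 TPM), and mouse 5 lay within the intact range. The mutant mean went from 13.6 ± 1.98 (SD, n = 4) to 8.54 ± 2.80 (SD, n = 5), and the change of -0.66 ± 0.20 log2 units passed (adjusted p = 0.0218). In wild type the change was -0.26 ± 0.23 (adjusted p = 0.556), and the genotypes' injury effects differed by -0.40 ± 0.30 (adjusted p = 0.757).

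The Flt1 call was the least steady of the 5, passing in 16 of 22 settings with adjusted p from 0.00977 to 0.387. The adjusted p was 0.0517 without injured mutant 3, and 0.0555, 0.0654 and 0.0526 without intact mutants 1, 2 and 4. With only the 2 mutant groups in the fit it was 0.0586. Within mutants named A8 the change was -1.07 (adjusted p = 0.0259), and within those named M it was -0.34 (adjusted p = 0.387).

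Kdr, the main signalling receptor, had a difference in the other direction from Flt1 that did not pass. Its level was 0 to 0.262 TPM in intact mutants, 0.983 to 7.33 TPM in injured mutants and 0.284 to 17.3 TPM in injured wild-type mice. The mutant groups did not overlap, as for 27.2% of all tested genes. Kdr was admitted to the test only by injured libraries (7 injured and 0 intact at 1 TPM or more). The difference in mutants was 1.52 ± 0.66 (adjusted p = 0.0735). Flt1 exceeded Kdr in 7 of 7 intact and 8 of 9 injured discs. Flt4, the VEGF-C receptor, did not pass the filter and was listed at no more than 2.01 TPM. Tek and Tie1, the angiopoietin receptor and its partner, had differences of 1.18 ± 0.67 (adjusted p = 0.162) and 1.39 ± 0.76 (adjusted p = 0.143) in mutants. Tek was at 1 TPM or more in 8 injured and 2 intact libraries, and Tie1 in 7 and 2. Both were thus admitted to the test mostly by injured libraries. In both injured groups the highest mouse for Kdr, Tek and Tie1 was also the highest for the endothelial marker sum.

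**Figure D3:**
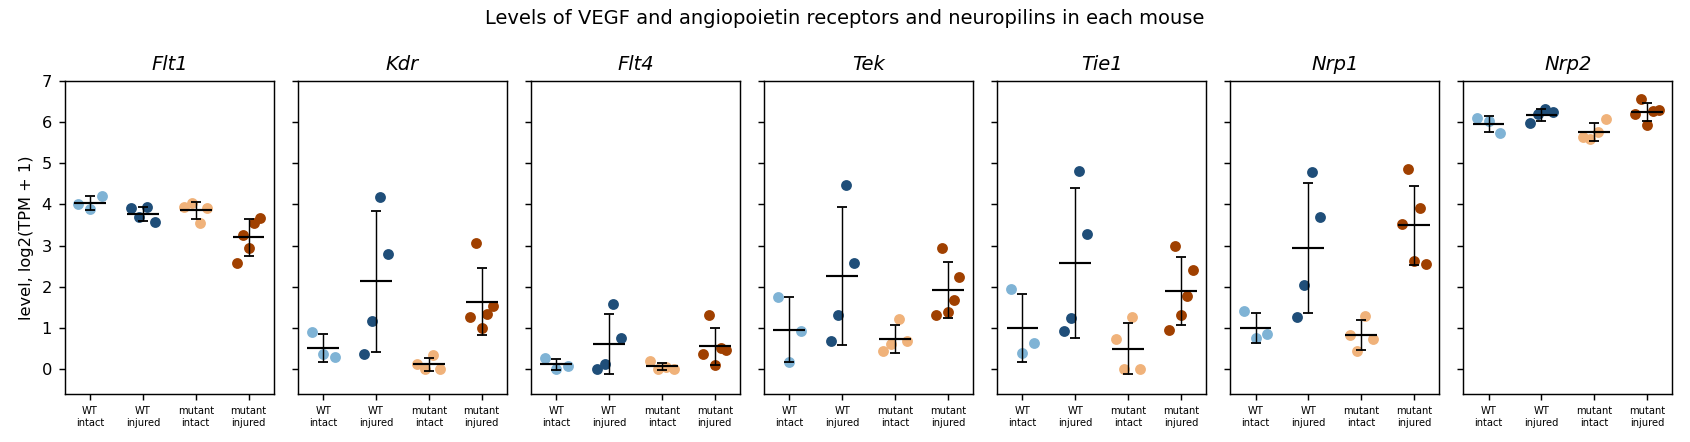
Level on the log2(TPM + 1) scale (vertical axis) of the VEGF receptors Flt1, Kdr and Flt4, the angiopoietin receptors Tek and Tie1, and the neuropilins in each mouse. Points are mice, bars are the mean and SD of each group (n = 3, 4, 4 and 5); Flt1 has its lowest mean in injured mutants, and Nrp2 lies above Nrp1 in all 16 mice.

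In all, 12 endothelial markers were summed beside these genes. The sum was 66.0 to 115 TPM in intact and 70.3 to 535 TPM in injured wild-type mice, and 58.6 to 110.4 TPM in intact and 98.3 to 256 TPM in injured mutants. Of 12 markers, 1 rose in mutants (Plvap, 2.53 ± 0.90, adjusted p = 0.0294) and 0 in wild type, where limma gave 2 of them an unadjusted p under 0.05. Of all tested genes 13.1% rose in mutants, and limma gave 17.2% an unadjusted p under 0.05 in wild type. Voom called 0 of the 12 in either genotype. Their median change was 0.62 in mutants and 0.81 in wild type. Of the 12, 2 reached 1 TPM only in injured libraries and 4 did so in fewer than 3 intact ones. Defining markers were low but not all at 0 in intact discs, with Pecam1 at 1.36 to 6.49 TPM and Cdh5 at 0.147 to 4.20 TPM. Emcn and Cldn5 were at no more than 1.44 and 2.88 TPM there, and Robo4 and Sox17 at no more than 0.916 and 0.925 TPM. The largest parts of the sum in intact discs were Eng (28.6 to 44.2 TPM) and Erg (16.1 to 42.2 TPM). The part of endothelial RNA in the Flt1 result was not tested. In bulk tissue, fewer cells of a type and less RNA per cell cannot be told apart.

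Nrp1, a co-receptor for VEGF-A and semaphorins, rose 15.4-fold with injury in mutants and spread widely among injured mice of both genotypes. It lies at chr8:128358604-128503363 on the plus strand. It was listed at 1.67, 0.6745 and 0.793 TPM in intact wild-type mice and at 1.41, 3.14, 26.5 and 11.9 TPM in injured ones. Intact mutants had 0.7855, 0.3535, 1.45 and 0.665 TPM, and injured mutants had 10.4, 28.3, 5.13, 14.1 and 4.87 TPM. Every injured mutant exceeded every intact mutant, while injured wild-type mouse 1 lay within the intact wild-type range. The mutant mean rose from 0.813 ± 0.462 (SD, n = 4) to 12.6 ± 9.59 (SD, n = 5), and the log2 change was 2.67 ± 0.67 (adjusted p = 0.00581). In wild type the means were 1.04 ± 0.541 and 10.7 ± 11.5, and the change of 1.95 ± 0.76 had an adjusted p of 0.204. The injury effects differed by 0.72 ± 1.01 between the genotypes (adjusted p = 0.859).

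The Nrp1 rise passed in 21 of 22 settings, with adjusted p from 0.00200 to 0.188. Within mutants named A8 it was 3.56 (adjusted p = 0.0405), and within those named M it was 2.01 (adjusted p = 0.188). Nrp1 had the order of the myeloid marker sums in both injured groups and in neither intact group. Among the 4 injured wild-type mice the order by Nrp1 (3, 4, 2, 1) was also the order by the macrophage, neutrophil and endothelial sums. Nrp2, Vegfc and Angpt2 had this same order there, so it was not particular to Nrp1. Among the 5 injured mutants the order by Nrp1 (2, 4, 1, 3, 5) was that of the macrophage and neutrophil sums and not of the endothelial sum. In intact mutants Nrp1 had the endothelial order, Angpt1 the order of the notochordal marker sum and Nrp2 that of the chondrocyte marker sum. Among intact wild-type mice Nrp2, Pgf and Vegfa had the order (1, 2, 3) of the macrophage, endothelial and notochordal sums. In mutants 7 of 8 macrophage markers rose with a median change of 3.08, and 5 of 6 tested neutrophil markers rose with a median of 3.69. Of all tested genes 13.1% rose there. Voom called the same number of macrophage markers, 7, and 0 of the 6 neutrophil markers. Of those 6, 3 reached 1 TPM only in injured libraries and 5 did so in fewer than 3 intact ones. In wild type 0 of both lists passed, with medians of 2.43 and 1.71. There limma gave 7 macrophage and 0 neutrophil markers an unadjusted p under 0.05, and voom called 0 of both. The neutrophil sum was 1.87 to 6.50 TPM in intact discs, 3.52 to 195 TPM in injured wild-type mice and 13.9 to 1106 TPM in injured mutants, while the granule gene Mpo was at 0.43 TPM or less. Of the macrophage markers, Lyz2 had the highest level in injured mutants (414 to 5547 TPM), so the macrophage sum leans on it. Csf1r was at 40.1 to 142 TPM there and at 41.3 to 68.7 TPM in intact mutants. The part of myeloid RNA in the Nrp1 result was not tested.

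**Figure D4:**
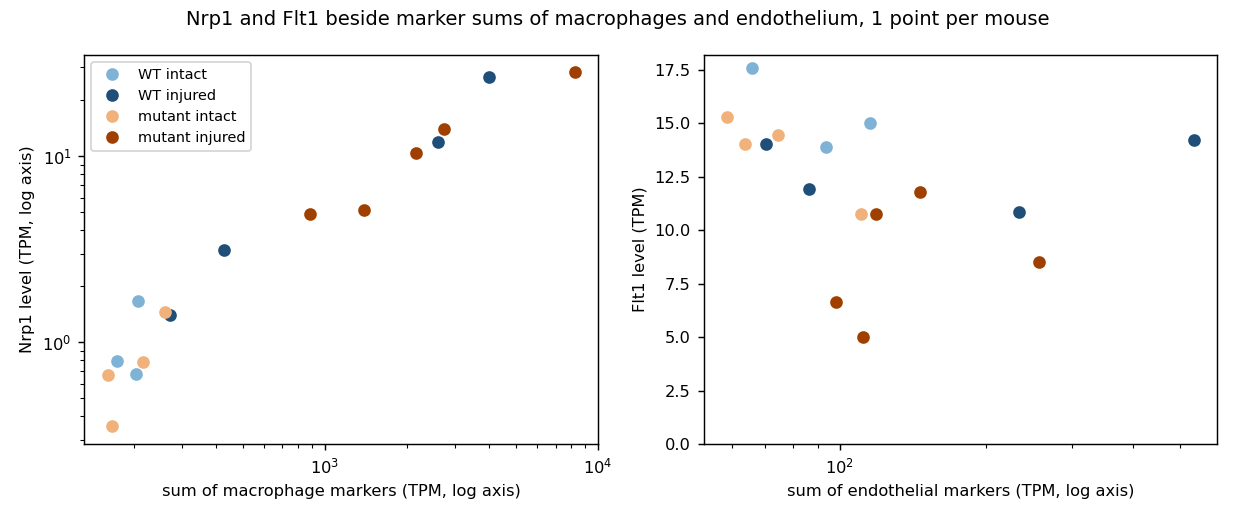
Left, Nrp1 level in TPM against the summed TPM of 8 macrophage markers (both axes log); right, Flt1 level in TPM (linear axis from 0) against the summed TPM of 12 endothelial markers (log axis). Each point is 1 mouse, coloured by group; the injured mutant highest in Nrp1 (28.3 TPM) has the highest macrophage sum (8225 TPM), and the lowest Flt1 levels (5.00 and 6.66 TPM) are injured mutants.

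Nrp2, the co-receptor used by VEGF-C and class 3 semaphorins, stayed between 46.8 and 93.3 TPM in all 16 mice and rose modestly with injury in mutants. It lies at chr1:62703285-62818695 on the plus strand and overlaps the antisense gene Gm29083. It was listed at 68.2, 64.4 and 52.2 TPM in intact wild-type mice and at 62.0, 72.5, 78.7 and 74.8 TPM in injured ones. Intact mutants had 48.5, 46.8, 53.5 and 66.6 TPM, and injured mutants had 72.5, 93.3, 59.9, 75.7 and 77.3 TPM. In each genotype 1 injured mouse lay within the intact range. The mutant mean rose from 53.8 ± 8.94 to 75.7 ± 12.0 (SD, n = 4 and 5), 1.41-fold, with a log2 change of 0.48 ± 0.14 (adjusted p = 0.0142). In wild type it was 0.23 ± 0.16 (adjusted p = 0.449), and the difference between the genotypes was 0.26 ± 0.21 (adjusted p = 0.766).

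Without intact mutant 2, the Nrp2 change was 0.42 with an adjusted p of 0.0511. Within mutants named A8 it was 0.78 (adjusted p = 0.0249), and within those named M it was 0.24 (adjusted p = 0.390). It passed in 20 of 22 settings, with adjusted p from 0.00652 to 0.390. In injured wild-type mice Nrp2 had the same order (3, 4, 2, 1) as the macrophage, neutrophil and endothelial sums, as did Nrp1, Vegfc and Angpt2. In injured mutants its order (2, 5, 4, 1, 3) was that of the endothelial sum and not of the myeloid sums. The part of these cells in the Nrp2 result was not tested.

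The log2 ratio of Nrp2 to Nrp1, with 1 TPM added to each, averaged 4.94 in intact and 2.75 in injured mutants, with ranges of 4.47 to 5.34 and 1.69 to 3.74 that did not overlap. The difference of -2.18 had an exact two-sided permutation p of 0.0159, which became 0.238 after adjustment over 15 ratio tests. In wild type the ratio averaged 4.96 in intact and 3.24 in injured discs (exact permutation p = 0.143, adjusted 0.429). With 15 tests, the smallest p that 5 against 4 mice can give (0.00794) becomes 0.119 when it stands alone, so a lone injury or genotype difference could not pass. The 3 interaction tests, with 4410 arrangements each, had no such limit, and their adjusted p ran from 0.559 to 0.942.

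Neither angiopoietin passed the test in any contrast. Angpt2, the vessel-destabilising ligand, was listed at 5.80, 2.30 and 3.68 TPM in intact wild-type mice and at 4.25, 5.82, 9.47 and 8.48 TPM in injured ones. Intact mutants had 4.93, 2.64, 4.24 and 4.28 TPM, and injured mutants had 5.14, 8.21, 5.97, 7.34 and 6.12 TPM. All injured mutants exceeded all intact mutants, the nearest pair being 4.93 and 5.14 TPM, and the wild-type groups overlapped. The change was 0.60 ± 0.25 in mutants (adjusted p = 0.0850) and 0.71 ± 0.28 in wild type (adjusted p = 0.244). It passed in mutants in 1 of 22 settings, quantile normalization (0.68, adjusted p = 0.0445), and adjusted p reached 0.399 in others. The gene, at chr8:18690263-18741562 on the minus strand, overlaps the protein-coding gene Mcph1 on the other strand. Use of strand in the authors' counting is not given in the sources used here, so reads of the overlap cannot be told apart, and the same holds for Nrp2 and Angpt1 and their antisense genes.

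Angpt1, the Tek-activating ligand, is annotated at chr15:42424723-42676977 on the minus strand and overlaps the antisense gene Gm17473. It was listed at 3.67, 1.77 and 5.01 TPM in intact wild-type mice and at 5.11, 7.05, 8.21 and 4.99 TPM in injured ones. Intact mutants had 3.71, 5.10, 1.53 and 4.37 TPM. Injured mutants spread from 0.863 TPM in mouse 3 over 1.68, 2.87 and 4.01 TPM to 9.26 TPM in mouse 2, a range that enclosed all intact mutants. The change was -0.16 ± 0.45 in mutants (adjusted p = 0.804) and 0.76 ± 0.51 in wild type (adjusted p = 0.422), and it became 0.11 in mutants without mouse 3 of the injured group. Injured mutants named A8 (1 and 2) were the highest in Angpt1, and within mutants the change was 0.42 for libraries named A8 and -0.46 for those named M.

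The log2 ratio of Angpt2 to Angpt1 averaged 0.91 in injured mutants, against 0.16 in intact mutants, 0.14 in intact wild-type mice and 0.10 in injured wild-type mice. Its range in injured mutants, -0.16 to 1.90, overlapped all other groups. Exact permutation gave p = 0.214 for injury in mutants (adjusted 0.536) and p = 0.143 for genotype in injured discs (adjusted 0.429). The log2 ratio of Pgf to Vegfa was -6.99 in injured and -7.62 in intact mutants, and -6.91 and -7.42 in wild type. The injured minus intact difference was 0.63 in mutants and 0.51 in wild type, and exact permutation gave p = 0.0794 and p = 0.143, both 0.429 once adjusted. Pgf lies near or below the added 1 TPM, and with 0.1 TPM added the differences were 1.88 in mutants and 0.348 in wild type. The difference between these injury effects went from 0.12 to 1.53 with that change, and neither passed.

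Between genotypes, none of the 8 genes passed in intact discs, where 0.0165% of all tested genes were called, or in injured discs, where 0.918% were. Limma gave 0 and 1 of them an unadjusted p under 0.05, beside 3.78% and 20.3% of all tested genes, and voom called 0 in both. In intact discs Vegfa had the largest of these differences, mutant minus wild type -0.31 ± 0.19 log2 units (adjusted p = 1), with groups that did not overlap, as for 6.18% of all tested genes. In injured discs the gene with an unadjusted p under 0.05 was Flt1, mutant minus wild type -0.57 ± 0.20 (adjusted p = 0.134). Angpt1 differed by -0.86 ± 0.45 (adjusted p = 0.269), Vegfc by 0.68 ± 0.50 (adjusted p = 0.438) and Nrp1 by 0.55 ± 0.67 (adjusted p = 0.651). None of the 8 had non-overlapping genotype groups in injured discs, against 4.77% of all tested genes. For the interaction of injury and genotype, limma gave no gene of the 8 an unadjusted p under 0.05, beside 8.18% of all tested genes. Voom called 0 of the 8, and 0% of all tested genes passed in limma. The 8 genes' standard errors there ran from 0.21 for Nrp2 to 1.01 for Nrp1.

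By the raw TPM, 3 of the 8 tested genes had injured and intact mutants that did not overlap (Vegfc, Nrp1 and Angpt2), where 27.2% of all tested genes did so. In wild type they were Vegfa and Vegfb, 2 of 8, where 15.6% of all tested genes did so. The count in mutants leans on genes admitted to the test by the group where they are high. Vegfc was admitted only by injured libraries, and Nrp1 mostly so (9 injured and 2 intact at 1 TPM or more).

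Other genes of the pathway were counted as lists. With injury in mutants limma called 13.1% of all tested genes higher and 17.7% lower, and voom called 7822 genes. In wild type limma gave 17.2% of all tested genes an unadjusted p under 0.05, and voom called 4. These values stand beside the counts of all lists. First came further secreted factors. Of 11 (Vegfd, Angpt4, 7 class 3 semaphorins, and Angptl2 and Angptl4, which are related to angiopoietins but do not bind Tek), 2 rose and 3 fell in mutants, with a median change of 0.17 beside -0.08 for all tested genes. Angptl4, an inhibitor of lipoprotein lipase, was at 0.616 to 1.51 TPM in intact and 4.77 to 36.2 TPM in injured mutants (rise of 2.43 ± 0.74, adjusted p = 0.0150). The neuropilin ligands Sema3a (-1.06 ± 0.25, adjusted p = 0.00472), Sema3b (-1.76 ± 0.36, adjusted p = 0.00198) and Sema3c (-0.85 ± 0.14, adjusted p = 0.000982) fell. Voom called 4 of the 11, these semaphorins and Sema3d, all lower, and neither Vegfd nor Angptl4. Of 9 tested further receptors, Plxnd1 (1.55 ± 0.54, adjusted p = 0.0277) and Plxna1 (0.57 ± 0.22, adjusted p = 0.0475) rose and Plxna2 (-1.81) and Plxna3 (-1.12) fell, with a median of 1.18, and voom called 3 of these, not Plxna1. Of the 9 receptors, 1 reached 1 TPM only in injured libraries and 4 did so in fewer than 3 intact ones. In wild type limma called 0 of both lists, with medians of 0.30 for secreted factors and 1.15 for receptors, gave 5 factors and 1 receptor an unadjusted p under 0.05, and voom called 0.

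Of 8 angiogenesis inhibitors, 4 fell and 1 rose in mutants, with a median change of -0.40. Of all tested genes 17.7% fell and 13.1% rose there. Cnmd (chondromodulin, an inhibitor made by cartilage) fell, with 599 to 718 TPM in intact and 8.15 to 172 TPM in injured mutants (-3.22 ± 0.78, adjusted p = 0.00441). Its relative Tnmd (tenomodulin) changed by -2.03 ± 0.54 (adjusted p = 0.00780), and the thrombospondins Thbs1 and Thbs2 by -1.84 and -1.25. Vash1, an endothelial feedback inhibitor, rose by 1.90 ± 0.45 (adjusted p = 0.00524). Serpinf1, Col18a1 and Timp3 had positive changes of 0.46, 0.98 and 0.71 that limma did not call (adjusted p = 0.571, 0.169 and 0.2305). Of the secreted factor, receptor, inhibitor and hypoxia lists, Thbs2 was the one gene that limma called between genotypes in injured discs, at 74.5 to 126 TPM in mutants and 167 to 198 TPM in wild type (-0.81, adjusted p = 0.0277). Voom called it too, and also Plxna2 and Plxna3, which were lower in mutants by limma without passing (adjusted p = 0.0738 and 0.0667). In wild type limma called 0 of the 8 for injury, 3 had an unadjusted p under 0.05, and voom called 0.

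Of 12 targets of hypoxia-inducible factors other than Vegfa, limma called 1 in mutants, Pdk1, which restrains pyruvate use by mitochondria, and it fell (-0.70 ± 0.20, adjusted p = 0.0113). Voom called 4, adding Bnip3, Car9 and Adm, which had limma changes of -0.60, -1.21 and -1.17 with adjusted p of 0.0519, 0.0544 and 0.0570. The median change was -0.31 in mutants and -0.48 in wild type. Of all tested genes limma called 17.7% lower and 13.1% higher in mutants. The glucose transporter gene Slc2a1 was at 550 to 664 TPM in intact and 225 to 888 TPM in injured mutants (-0.28 ± 0.33, adjusted p = 0.523). Of 5 regulators of the response, Hif1a rose in mutants (0.65 ± 0.14, adjusted p = 0.00464) and Vhl rose by 0.33, while Epas1 fell by 0.73 on the log2 scale (SE 0.23, adjusted p = 0.0190) and Egln1 by 0.57. In wild type limma called 0 of the 12 targets and 5 regulators, gave 4 and 1 an unadjusted p under 0.05, and voom called 0.

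Over the 16 libraries, 3 genes were named for each tested gene by the highest Pearson correlation of log2(TPM + 1), given as a description, since the libraries include 4 groups that differ in level. For Nrp1 they were Wdfy4 (0.993), Apobec1 (0.992) and Myo1f (0.992). For Flt1 they were Epas1 (0.965), Fuom (0.942) and Cyp1b1 (0.928). For Vegfa they were Saraf (0.845), Slc2a1 (0.837) and Arid4a (0.832). For Vegfb they were Dock5 (0.952), Wdr45 (0.948) and Chrm3 (0.945). Nrp2 was followed most closely by Slc25a22 (0.884), Slc7a15 (0.881) and Vash1 (0.881). Vegfc was nearest to Sdk1 (0.951), Ctla2b (0.945) and Gfra2 (0.945), Angpt1 to Cyb5r1 (0.882), Armt1 (0.876) and Sri (0.862), and Angpt2 to Sirt7 (0.938), Sox18 (0.929) and Nrip2 (0.916).

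Markers of the disc's own cells differed by list, and in mutants limma called 17.7% of all tested genes lower and 13.1% higher. Of 4 tested notochordal markers, 3 fell in mutants (log2 changes of -3.02 for Krt19, -2.56 for Krt8 and -3.15 for T), and voom called all 4. In wild type limma called 0, with 1 at an unadjusted p under 0.05, and voom called 0. Their summed TPM was 2523 to 4163 in intact and 31.4 to 2426 in injured mutants, and 3780 to 4886 and 1079 to 3854 in wild type. None of the 9 genes had exactly the order of this sum in injured mutants (4, 5, 2, 3, 1). Flt1 came near it there (5, 4, 2, 3, 1), with only mice 4 and 5 exchanged. Injured mutant 1, with the lowest sum, had the lowest Vegfa (151 TPM), Vegfb (25.2 TPM) and Flt1 (5.00 TPM) of its group, while injured mutant 3, the next lowest at 213 TPM, had the highest Vegfa (263 TPM). The part of notochordal RNA in these levels was not tested. Of 8 chondrocyte markers, Hapln1 rose and Comp fell in mutants, with a median change of -0.02. Of 7 annulus markers, Dcn rose and 4 fell (Fmod, Scx, Mkx and Tnmd, the last also counted above), with a median of -0.57. In wild type limma called 0 of both lists, with 1 chondrocyte and 3 annulus markers at an unadjusted p under 0.05, and voom called 0.

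Of markers of tissue that dissection could carry along, limma called 0 of 7 skeletal muscle and 0 of 5 erythroid markers for injury in mutants, where 0 and 1 had an unadjusted p under 0.05 and voom called 0. Limma called 30.8% of all tested genes there. The muscle sum was 161 to 627 TPM in intact and 66.0 to 188 TPM in injured wild-type mice, and 101 to 129 TPM in intact and 20.8 to 476 TPM in injured mutants. For injury in wild type all 7 muscle markers had negative changes (median -1.42), and limma gave 2 an unadjusted p under 0.05. The erythroid markers did not shift together there, with 2 of 5 changes positive and a median of -0.001. Their sum was 265 to 728 TPM in intact and 113 to 1473 TPM in injured wild-type mice. In intact discs all 7 muscle markers were lower in mutants than in wild type (median -1.15), with 3 at an unadjusted p under 0.05, as were all 5 erythroid markers (median -1.57), with 1. Limma and voom called 0 of these markers in both comparisons, which are those in which the Vegfa groups did not overlap, and the part of muscle or blood RNA in the Vegfa levels was not tested.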

How the data were processed

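RNA of intervertebral discs from 16 mice had been sequenced after ribosomal RNA depletion per the labels' protocols, although the molecule field of the labels reads polyA RNA. What the authors deposited is a single TPM table, which pairs Ensembl identifiers with gene names. The submitters' processing notes name bcl2fastq 2.20 and the build GRCm38. The aligner, the counting, its use of strand and its annotation are not given in the sources used here. TPM is relative within a library, so a large rise of some genes lowers the others. Groups and mouse numbers came from the sample titles. Nothing in the labels links a number to a shared litter or day. Separate mice are the replicates.

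Log-scale models were fitted with limma 3.58.1 under R 4.3.3, using lmFit and then eBayes with a trend. They used log2(TPM + 1), so changes of low genes are understated. Standard errors are those of lmFit, from the spread of each gene alone. The p-values are from eBayes, so they do not correspond exactly to the standard errors beside them. A gene entered (24188 of 49315 did) when 3 or more libraries had it at 1 TPM or above. There was 1 fit of all 16 libraries with a mean per group, and p-values were adjusted by Benjamini-Hochberg over those genes, with a threshold of 0.05. Ratios of genes were compared by exact two-sided permutation in Python 3.11.15. The fit was tested on simulated data. Read depth was approximated from TPM steps and GENCODE M21 exon lengths: 94.15% to 94.97% of values under 20 reads were within 0.05 of a whole number. For Vegfc and Pgf the tolerance was 0.15. Pgf values did not fall on the step of its exon length, so its reads were taken from its own step, 1.81 times as large. Angpt1 values also differed from the step of its exon length, and its reads in the voom fit were not corrected for this. Positions are from GENCODE M21 on GRCm38. RefSeq promoter sequences (GRCm38.p6) matched 7 of the 9 genes. Only windows of 250 bases without annotated exon were considered for printing. Every one of the 9 genes is described. List genes could be named whatever their result, as could the 3 tested genes with a symbol nearest to each by correlation. The 9 genes, the gene lists and the tests were chosen with earlier results of these data known.

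Alternatives were other pseudocounts, filters, scalings, sample weights, the library naming, the groups in the fit, the mouse number as a block and leaving out each mouse. A voom fit on the approximated reads was added after seeing the data.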

Additional observations from a re-analysis of the deposited data

How the results depend on the processing

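The limits are small groups (3 to 5 mice), uneven injury, unstated processing and few reads for Vegfc and Pgf, and a missed threshold does not show that groups were alike. Counts of called genes of the 8 were 0 in wild type, in both genotype comparisons and for the interaction under every alternative run. In mutants 5 were called, 0 with only libraries named M and 3 with only those named A8, fits that have fewer mice, and 3 to 5 when 1 mouse was left out (3 without intact mutant 2, which lost Flt1 and Nrp2). The replicate block (mouse number as a block) gave 4, losing Vegfc (1.57, adjusted p = 0.0671), and changed no other call of the 8. Same-numbered mice did not deviate together: correlations of 21 pairs ran from -0.217 to 0.151, so the numbers were not taken as pairing. A mean of at least 5 TPM left Vegfc untested.

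Over all tested genes the calls moved by more than 1.5 times. In wild type they were 28, with 2 to 452 when 1 mouse was left out and 4 to 77 otherwise. In mutants they were 7438, with 725 to 8559 over the alternatives other than leaving out mice. Between genotypes they were 4 in intact discs (1 to 7 and 2 to 8) and 222 in injured discs (7 to 2253 and 2 to 1070), and the interaction had 0 (0 to 15 and 0 to 4). Of the calls between genotypes in injured discs 20.7% were higher in mutants, and 47.5% after median-of-ratios scaling.

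Signs turned only in changes that did not pass, and the cause was not tested. For injury in mutants Angpt1 was 0.421 with libraries named A8, and Vegfa was 0.0008004 with median-of-ratios scaling and 0.1001 with libraries named M. Leaving out 1 mouse gave -0.5018 to 0.1135 for Angpt1 and -0.1503 to 0.04778 for Vegfa. For genotype in intact discs, libraries named M gave Angpt1 -0.213 and Nrp1 0.01394, those named A8 gave Angpt2 -0.02099, sample weights gave Angpt2 -0.07815, and naming as a covariate gave Nrp1 0.05698 and Vegfc 0.1251. Leaving out 1 mouse gave -0.2543 to 0.3284 for Angpt1, -0.1891 to 0.3321 for Angpt2 and -0.3306 to 0.03229 for Nrp1. For genotype in injured discs Angpt2 was 0.04908 with median-of-ratios scaling and 0.144 with quantile normalization. Nrp2 was -0.02493 with libraries named M, and Vegfa was -0.01991 with naming as a covariate and -0.1516 with libraries named A8. Leaving out 1 mouse gave -0.2313 to 0.1006 for Angpt2, -0.01308 to 1.159 for Nrp1 and -0.01491 to 0.1431 for Nrp2. For the interaction Angpt2 was 0.03352 with quantile normalization and 0.06465 with sample weights. Vegfb was -0.1247 with libraries named A8, -0.04031 with sample weights and -0.005725 with voom. Leaving out 1 mouse gave -0.378 to 0.1432 for Angpt2 and -0.07954 to 0.2065 for Vegfb.

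Among the log2 ratios, libraries named A8 gave Angpt2 to Angpt1 differences between genotypes of -0.3485 in intact and -0.02856 in injured discs. Leaving out 1 mouse gave -0.2991 to 0.1525 for injury in wild type and -0.2879 to 0.311 for genotype in intact discs. Pgf to Vegfa between genotypes in injured discs was 0.06159 with a pseudocount of 0.1 and 0.1601 with libraries named A8. Leaving out 1 mouse gave -0.232 to 0.05036 there and -0.03241 to 0.25 for the interaction. Nrp2 to Nrp1 between genotypes in intact discs was 0.1651 with a pseudocount of 0.1 and 0.009103 with libraries named A8. Leaving out 1 mouse gave -0.1554 to 0.1436 there, -1.052 to 0.00727 in injured discs and -1.031 to 0.02785 for the interaction.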
